A study of Mus musculus with 12 samples.

Results

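The primitive streak and mesoderm genes T, Mixl1, Eomes, Gsc, Kdr, Mesp1, Evx1 and Wnt3 were picked by symbol, with earlier results of these data known. They are 8 of the 23412 genes counted by RNA-Seq in mouse embryonic stem cells (mESCs). All cells were male v6.5 mESCs on gelatin under standard ESC conditions, and libraries were made from poly-A RNA. The 4 groups, each with 3 libraries, were WT mESCs, Hmgn1-/- mESCs, Hmgn2-/- mESCs and the double knockout Hmgn1-/-Hmgn2-/- mESCs (DKO mESCs). Both alleles of the target gene were hit by edits of 1 bp, which were a loss in Hmgn1 (exon 3) and a gain in Hmgn2 (exon 4). DKO mESCs carry edits of both genes and were derived from Hmgn2-/- mESCs by a further edit of Hmgn1. Each knockout is a line grown from a single edited cell, so line and genotype cannot be told apart. HMGN1 and HMGN2 are proteins that bind nucleosomes, and the comparison asks how mESC transcription differs without either or both.

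The libraries differed in depth. The WT libraries 1, 2 and 3 held 31448468, 17614490 and 28524108 counts. In Hmgn1-/- mESCs the totals were 25953244, 21059862 and 21993042 counts, and in Hmgn2-/- mESCs they were 25908890, 26486535 and 17337908 counts. The DKO libraries held 31005479, 22151507 and 26410485 counts. Levels are given as CPM scaled by the TMM method (TMM CPM), in the order of libraries 1, 2 and 3, and errors are SD over 3 libraries unless named otherwise. A library with 0 counts of a gene allows up to 3 counts, which is 0.0937 TMM CPM in the deepest WT library and 0.178 TMM CPM in the shallowest Hmgn2-/- library. Such limits cover counting error only. A gene called the most abundant of a list had the highest TMM CPM, with no division by exon length.

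The edited genes followed the labels. Hmgn1 stood at 622 ± 35.1 TMM CPM in WT mESCs, and at 140 ± 1.77 (Hmgn1-/-), 581 ± 51.4 (Hmgn2-/-) and 21.0 ± 0.929 (DKO) in the knockout lines. Hmgn2 stood at 126 ± 9.50 TMM CPM in WT mESCs, and at 109 ± 3.84 (Hmgn1-/-), 53.1 ± 1.92 (Hmgn2-/-) and 53.0 ± 2.16 (DKO). Each edited gene was lower in the lines that carry its edit, with no overlap with WT libraries. Pou5f1, a core pluripotency factor and the most abundant of 10 pluripotency markers, lay between 1652 and 2167 TMM CPM in the 12 libraries, and none of the 10 markers was at 0 in any library. By edgeR, 0 of the 10 markers passed the limits used for DEGs (adjusted p under 0.01 and a log2 FC of at least 1 in size) in any knockout against WT. DESeq2 gave 0 as well, and at an unadjusted p under 0.05 there were 6, 5 and 5 of the 10 in Hmgn1-/-, Hmgn2-/- and DKO mESCs, where 38.7%, 31% and 39.0% of all genes tested were at that level. Without the fold limit, 3, 2 and 4 of the 10 passed by edgeR, where 2466 of 13917, 1399 of 14047 and 2590 of 14128 genes tested passed. In each line these held Nanog, which was lower (log2 FC −0.32, −0.50 and −0.45), and Klf4, which was higher (0.93, 0.69 and 0.74). The others were Esrrb, higher in Hmgn1-/- and DKO mESCs (0.47 and 0.28), and Dppa3, lower in DKO mESCs (−0.56). These genes were named after their values were seen. The summed level of the 10 markers was 3691 to 4326 TMM CPM over the libraries. Without WT library 1, Klf4 passed in Hmgn1-/- mESCs, where it was higher, a gene named after its values were seen.

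In the embryo, the primitive streak is where epiblast cells move inward and form mesoderm and definitive endoderm. Wnt3 and Nodal signals start it, Brachyury (T) and Eomes are T-box factors that carry out much of its program, and Mesp1 and Kdr mark mesoderm that goes on to heart and blood vessels. In mESC cultures kept with LIF, streak genes are mostly found at low levels, in part in cells that have begun to leave the pluripotent state.

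Some libraries stood apart within their group. The chi-square per degree of freedom between pairs of libraries over all genes was 11.2 and 12.1 for WT library 1 against WT libraries 2 and 3, and 3.40 between the latter. Hmgn2-/- library 3, the shallowest of all, gave 36.4 and 20.6 against libraries 1 and 2 of its group, which gave 8.11 against each other. Of the 7 streak genes averaging 10 counts or more in WT mESCs, 5 were lowest in WT library 1, the deepest library, as were 20 of 34 genes for streak signals and further factors. No share of all genes lowest in WT library 1 is given here, so neither count was set against one. T was there 0.335 times the mean of the other WT libraries, Evx1 0.341 times, Kdr 0.387 times and Wnt3 0.572 times. Eomes and Mixl1 hardly differed, at 0.982 and 1.03 times, and Gsc was 2.17 times as high. T, Evx1, Kdr and Wnt3 are also the 4 genes that passed the limits in at least 1 knockout line, and results that rest on WT library 1 or Hmgn2-/- library 3 are given with and without it.

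Against WT mESCs, the ligand gene Wnt3 and the T-box gene T fell in all 3 knockout lines. Kdr, which encodes a VEGF receptor, fell past the limits in Hmgn1-/- and DKO mESCs, and the homeobox gene Evx1 in Hmgn2-/- and DKO mESCs. Kdr was lower in Hmgn2-/- mESCs too (log2 FC −2.07, adjusted p = 0.0145 by edgeR), as was Evx1 in Hmgn1-/- mESCs (−1.82, adjusted p = 0.0132). Neither of these passed the p limit. Eomes was lower by less than the fold limit, Mixl1 and Mesp1 had higher means in every knockout line without passing, and for Gsc no difference was detectable. In numbers, 3 (Hmgn1-/-), 3 (Hmgn2-/-) and 4 (DKO) of the 8 genes passed, all with a lower level. Over all genes tested, 5.03%, 4.37% and 4.97% passed with a lower level in the same comparisons. By DESeq2, Wnt3, T, Kdr and Evx1 passed in each line (4 of the 8 genes), all with a lower level. There 681 of 15442, 681 of 15811 and 674 of 15835 genes tested fell. The 8 genes and the gene lists were chosen with earlier results of these data known, so such shares are no test of a set.

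The median log2 FC of the 8 genes was −1.20 (Hmgn1-/-), −1.22 (Hmgn2-/-) and −1.11 (DKO), where the median over all genes tested was 0.0040, 0.013 and 0.0037. Libraries of knockout and WT mESCs did not overlap for 6, 6 and 7 of the 8 genes, and over all genes tested this held for 42.5%, 36.1% and 42.6%. The 3 comparisons share the same WT libraries. Their p-values reflect the spread between libraries of 1 line, not between lines. In bulk RNA, fewer cells of a type and less RNA per cell cannot be told apart. All 8 genes were tested in each of these comparisons, but most had few counts. When at least 10 counts were required in every library, only Mixl1 and Eomes were tested in the single knockouts. In DKO mESCs these were tested with Evx1 and Wnt3. The counts were then 0, 0 and 1, the latter being Wnt3, where 455 of 12864, 415 of 12793 and 503 of 13000 genes tested fell. Without Hmgn2-/- library 3, only Wnt3 passed in Hmgn2-/- mESCs (count 1), where 632 of 14340 genes tested fell. In DKO mESCs the count was 1, again Wnt3, without DKO library 1, where 548 of 14351 genes tested fell. It was 2 without WT library 2, WT library 3, DKO library 2 or DKO library 3. In these fits 605 of 14365, 602 of 14298, 610 of 14407 and 599 of 14427 genes tested fell.

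**Figure D1:**
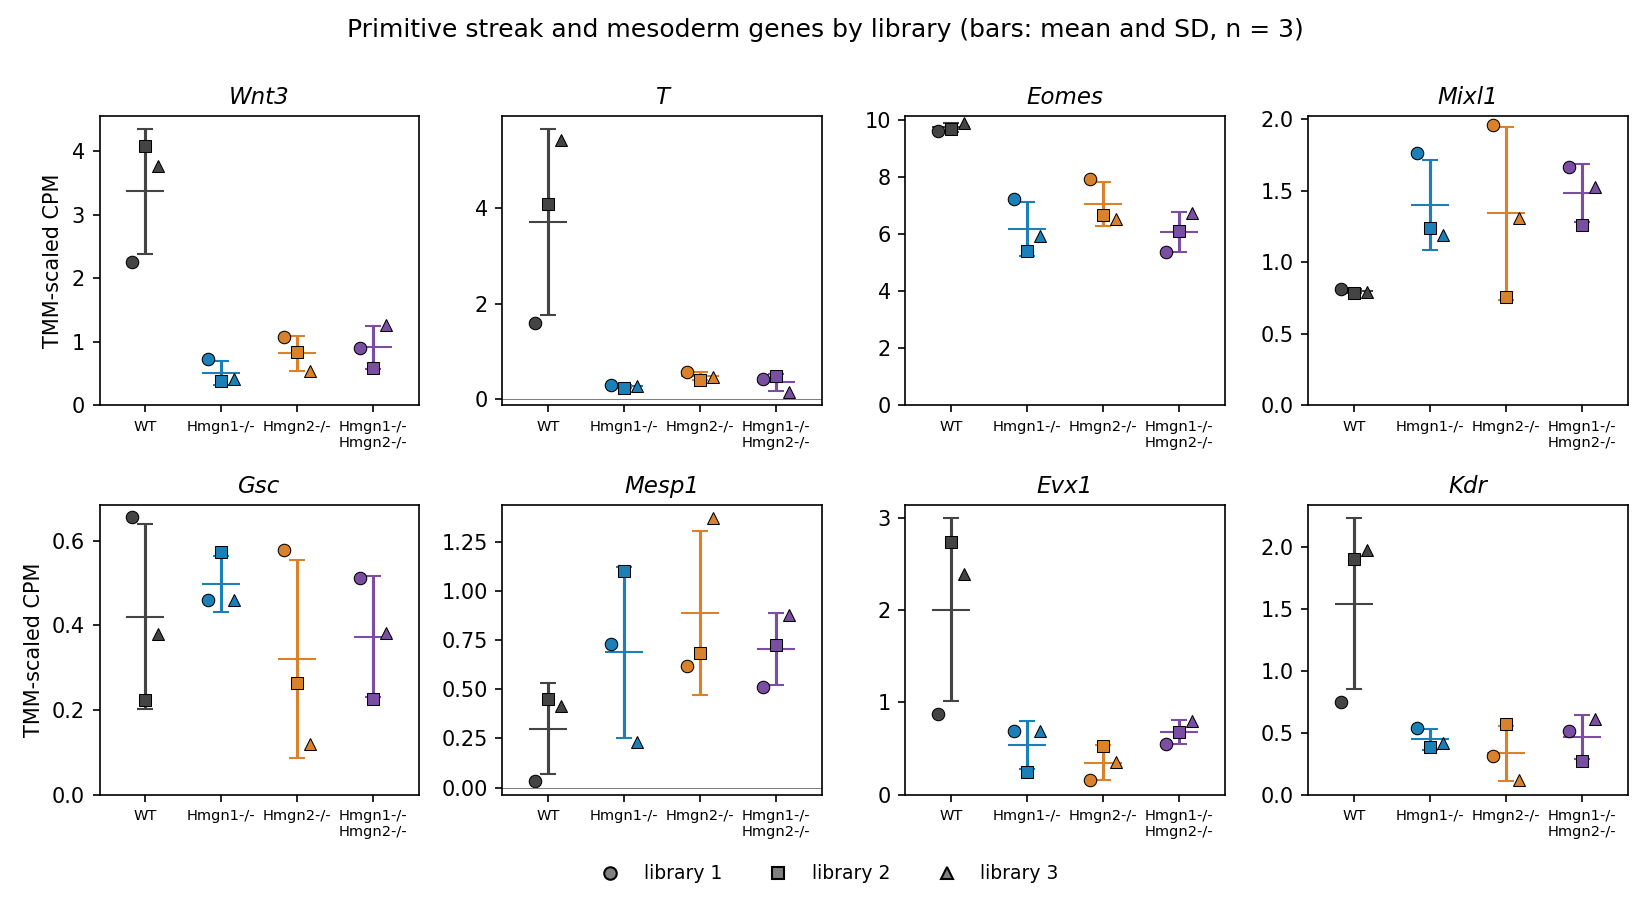
TMM CPM of each gene (y axis, from 0) in the 12 libraries, grouped by genotype, with symbols for libraries 1, 2 and 3 and bars for the mean and SD of 3. Every knockout library lies below every WT library for Wnt3, T, Eomes, Evx1 and Kdr, and WT library 1 is the lowest of its group for each of these.

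The promoters of Wnt3, T, Evx1 and Kdr, which all fell in DKO mESCs, are shown with that of Mesp1, which did not fall. They are RefSeq promoter sequences of GRCm38.p6, 250 bases before to 50 bases after the start, and 7 of the 8 genes had an entry (not Mixl1). Capitals mark matches, on either strand, to CTTTGA, the core recognised by TCF/LEF factors of the Wnt pathway, and AGGTGT, the core recognised by T-box factors. No marked matches overlap. The RefSeq start of Mesp1 lies inside the gene as GENCODE places it, so most of its window is within that gene. The windows are chr11:103773925-103774224 on the plus strand (Wnt3), chr17:8434173-8434472 on the plus strand (T), chr6:52313248-52313547 on the plus strand (Evx1), chr5:75978406-75978705 on the minus strand (Kdr) and chr7:79793541-79793840 on the minus strand (Mesp1).
Wnt3: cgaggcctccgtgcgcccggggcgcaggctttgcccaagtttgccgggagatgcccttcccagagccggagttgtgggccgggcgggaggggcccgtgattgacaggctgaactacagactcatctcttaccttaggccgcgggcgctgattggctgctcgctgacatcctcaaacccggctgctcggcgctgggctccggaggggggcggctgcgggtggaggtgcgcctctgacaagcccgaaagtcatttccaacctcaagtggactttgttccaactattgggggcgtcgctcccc
T: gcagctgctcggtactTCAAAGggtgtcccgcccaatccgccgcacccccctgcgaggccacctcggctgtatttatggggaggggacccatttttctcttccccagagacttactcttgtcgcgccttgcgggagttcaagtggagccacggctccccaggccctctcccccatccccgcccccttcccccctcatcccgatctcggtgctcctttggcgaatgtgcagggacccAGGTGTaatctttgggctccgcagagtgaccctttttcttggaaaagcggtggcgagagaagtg
Evx1: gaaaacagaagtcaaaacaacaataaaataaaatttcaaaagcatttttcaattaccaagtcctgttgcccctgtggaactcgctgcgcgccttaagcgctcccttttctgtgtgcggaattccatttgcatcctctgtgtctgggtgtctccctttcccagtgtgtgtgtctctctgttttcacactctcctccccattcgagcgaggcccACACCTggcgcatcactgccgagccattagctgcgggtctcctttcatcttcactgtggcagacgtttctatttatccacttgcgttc
Kdr: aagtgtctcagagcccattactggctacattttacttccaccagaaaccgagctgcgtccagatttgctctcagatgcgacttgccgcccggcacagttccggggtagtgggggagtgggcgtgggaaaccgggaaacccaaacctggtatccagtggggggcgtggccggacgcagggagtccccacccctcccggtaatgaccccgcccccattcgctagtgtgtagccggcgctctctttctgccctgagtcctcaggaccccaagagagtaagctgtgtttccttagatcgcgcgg
Mesp1: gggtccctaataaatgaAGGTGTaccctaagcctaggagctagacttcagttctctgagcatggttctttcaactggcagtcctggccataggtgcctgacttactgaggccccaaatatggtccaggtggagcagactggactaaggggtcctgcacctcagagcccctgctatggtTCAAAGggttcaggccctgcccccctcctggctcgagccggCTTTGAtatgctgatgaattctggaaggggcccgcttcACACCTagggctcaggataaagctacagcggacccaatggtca

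CTTTGA was found in 2 of the 7 promoters, T and Mesp1, and in 16% of the 32851 promoters in the table. AGGTGT was found in 3 of the 7, T, Mesp1 and Evx1, and in 13.7% of all. Mesp1, which did not fall, held 2 matches of each and T, which fell in all lines, 1 of each, while Wnt3 and Kdr, which fell, and Eomes and Gsc, which did not pass, held neither. GGGCGG, the GC box, was found in 4 of the 7 promoters (T, Gsc, Kdr and Wnt3, 2 matches each) and in 35.7% of all, and TATAAA in Gsc alone of the 7 and in 13.6% of all. The ratio of observed to expected CpG was 0.744 for Wnt3, 0.71 for Evx1, 0.689 for Kdr and 0.607 for T, against a median of 0.384 over all promoters. For Mesp1 it was 0.174, the lowest of the 7, and for Eomes and Gsc it was 0.607 and 0.934. A match describes letters in this window and not a bound site.

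Wnt3 encodes the secreted ligand that the epiblast needs to form a streak. It lies at chr11:103774150-103817957 on the plus strand (GRCm38). Its level was 2.25, 4.09 and 3.77 TMM CPM in WT mESCs, from 72, 73 and 109 counts. The Hmgn1-/- libraries had 0.730, 0.382 and 0.414, the Hmgn2-/- libraries 1.08, 0.833 and 0.535, and the DKO libraries 0.897, 0.587 and 1.26. All 9 knockout libraries were below the lowest WT library, and the knockout groups overlapped each other. Wnt3 thereby stood at 15.1%, 24.2% and 27.1% of its WT mean in the 3 lines. Its log2 FC was −2.67 with loss of HMGN1 (SE 0.33, adjusted p = 1.25e-05), −1.98 with loss of HMGN2 (SE 0.31, adjusted p = 0.00131) and −1.85 with loss of both (SE 0.30, adjusted p = 2.56e-04). These 3 calls held when any 1 library was left out.

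T encodes Brachyury, the T-box factor that marks the streak and nascent mesoderm and is a known target of Wnt signals. The gene lies at chr17:8434423-8442496 on the plus strand. WT mESCs had 1.59, 4.09 and 5.43 TMM CPM, from 51, 73 and 157 counts. Hmgn1-/- mESCs had 0.307, 0.239 and 0.276, Hmgn2-/- mESCs 0.577, 0.416 and 0.476, and DKO mESCs 0.417, 0.497 and 0.153. The WT libraries were spread over more than the whole range of the knockout libraries, yet the groups did not overlap. No knockout library held more than 15 counts of T. Its fitted level was 13.1-fold lower in Hmgn1-/- mESCs (log2 FC −3.71, SE 0.52, adjusted p = 3.60e-04), 7.40-fold lower in Hmgn2-/- mESCs (log2 FC −2.89, SE 0.46, adjusted p = 0.00137) and 10.3-fold lower in DKO mESCs (log2 FC −3.37, SE 0.54, adjusted p = 0.00121). T had the most negative log2 FC of the 8 genes in each line. Over fits that lacked a single library, the log2 FC of T ranged from −4.11 to −3.29 (Hmgn1-/-), −3.28 to −2.47 (Hmgn2-/-) and −3.77 to −2.95 (DKO). The call in Hmgn2-/- mESCs was lost without library 3 of that group (log2 FC −2.87, adjusted p = 0.0111), where the range over libraries left out was 7.33e-05 to 0.0111. In DKO mESCs the call was lost without DKO library 1 (log2 FC −3.53, adjusted p = 0.0174), within a range of 1.91e-09 to 0.0174.

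Eomes encodes the T-box factor of the early streak that is needed for cardiac mesoderm and definitive endoderm. It lies at chr9:118478212-118486132 on the plus strand and shares exon bases with the antisense gene Gm33460. The strand setting of the counting is not given in the sources used here, so reads of the pair cannot be told apart. Eomes was measured at 9.62, 9.68 and 9.90 TMM CPM in WT mESCs, 7.22, 5.40 and 5.93 in Hmgn1-/- mESCs, 7.93, 6.66 and 6.54 in Hmgn2-/- mESCs and 5.35, 6.10 and 6.75 in DKO mESCs. It was the best counted of the 8 genes, at 110 to 308 counts a library, and each knockout library was below each WT library. The difference was small beside that of T and Wnt3, at 63.5%, 72.4% and 62.3% of the WT mean. The log2 FC of −0.65 in Hmgn1-/- mESCs (adjusted p = 0.00174) and −0.69 in DKO mESCs (adjusted p = 8.25e-04) missed only the fold limit, and that of −0.46 in Hmgn2-/- mESCs (adjusted p = 0.0304) missed both limits. WT library 1, low in T and Wnt3, was not low in Eomes.

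Mixl1, Gsc and Mesp1 encode, in turn, a homeobox factor of the streak, the homeobox factor Goosecoid of the anterior streak and organizer, and a bHLH factor of early cardiac mesoderm. They lie at chr1:180693043-180697034 (minus strand), chr12:104471209-104473330 (minus strand) and chr7:79792241-79793788 (minus strand). None of these 3 genes passed the limits in any knockout against WT. Mixl1 had 0.812, 0.784 and 0.796 TMM CPM in WT mESCs and ranged from 0.757 to 1.96 in the knockout libraries, of which only Hmgn2-/- library 2 lay within or below the WT range. Its log2 FC was 0.81, 0.75 and 0.89 in Hmgn1-/-, Hmgn2-/- and DKO mESCs, with adjusted p of 0.0484, 0.182 and 0.0222. Mesp1 had 0.0312, 0.448 and 0.415 TMM CPM in WT mESCs, the first from a single count, and 0.230 to 1.37 in the knockout libraries. Only Hmgn1-/- library 3 overlapped the WT range of Mesp1. The log2 FC of Mesp1 was 1.31, 1.62 and 1.33, with wide 95% confidence intervals of −0.22 to 2.83, 0.27 to 2.97 and 0.16 to 2.51 and adjusted p of 0.194, 0.0944 and 0.0845. Without WT library 1 the log2 FC of Mesp1 was 0.66, 0.96 and 0.68, the lowest over libraries left out. Gsc overlapped between all groups, at 0.224 to 0.656 TMM CPM in WT mESCs and 0.119 to 0.577 in the knockout libraries. A difference in Gsc was not detectable at this depth, with log2 FC of 0.14, −0.38 and −0.22 and adjusted p of 0.844, 0.706 and 0.769.

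Evx1 encodes a homeobox factor of the posterior streak. It lies at chr6:52313498-52318378 on the plus strand and shares exon bases with the antisense RNA gene Evx1os, so here too reads of the pair cannot be told apart. Evx1 had 0.874, 2.74 and 2.39 TMM CPM in WT mESCs, from 28, 49 and 69 counts. In Hmgn1-/- mESCs it had 0.692, 0.239 and 0.689, in Hmgn2-/- mESCs 0.154, 0.530 and 0.357, and in DKO mESCs 0.545, 0.677 and 0.801. All knockout libraries lay below WT library 1, itself far below the other WT libraries. The log2 FC was −2.47 in Hmgn2-/- mESCs (SE 0.52, adjusted p = 0.00693) and −1.53 in DKO mESCs (SE 0.40, adjusted p = 0.00941), both past the limits. The Hmgn1-/- line had −1.82 (SE 0.48, adjusted p = 0.0132), not past. With the replicate number as a block, since libraries of the same number resembled each other in this comparison, Evx1 passed in Hmgn1-/- mESCs (log2 FC −1.73, SE 0.41, adjusted p = 0.00364), and 4 of the 8 genes passed there. Over all genes tested, 761 of 13917 fell in Hmgn1-/- mESCs with the block, against 700 without it. Evx1 also passed in that line by DESeq2 (adjusted p = 0.00141), with no filter (adjusted p = 0.0040) and in the fit of all 12 libraries (adjusted p = 0.00768), in a range over alternatives of 0.00141 to 0.0143.

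The calls of Evx1 in Hmgn2-/- and DKO mESCs were lost when any of several libraries was left out, not 1 in particular. In Hmgn1-/- mESCs Evx1 passed without WT library 1 (log2 FC −2.21, adjusted p = 8.66e-06), and the range over libraries left out was 8.66e-06 to 0.0434. In Hmgn2-/- mESCs it passed without WT library 1 and not without WT library 2, WT library 3 or Hmgn2-/- library 1, 2 or 3, with log2 FC of −3.01 to −2.08 and adjusted p of 0.00106 to 0.0332. In DKO mESCs it likewise passed without WT library 1 and not without WT library 2, WT library 3 or any 1 DKO library, with log2 FC of −1.93 to −1.27 and adjusted p of 1.94e-05 to 0.0577. The DKO call was also lost in the fit of all 12 libraries (adjusted p = 0.0152), with counts thinned to the smallest library (adjusted p = 0.0124) and with at least 10 counts in every library (adjusted p = 0.0115), in a range over alternatives of 0.00184 to 0.0152. The direction was lower in each of these fits. The antisense gene Evx1os, matched through its RefSeq synonym and looked at after the values of Evx1 were seen, had 5, 7 and 18 counts in WT mESCs and 0 to 7 in the knockout libraries.

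Kdr encodes VEGFR2, the receptor that marks lateral mesoderm and the precursors of endothelium and blood. It lies at chr5:75932827-75978458 on the minus strand. Kdr had 0.750, 1.90 and 1.97 TMM CPM in WT mESCs, 0.538, 0.382 and 0.414 in Hmgn1-/- mESCs, 0.308, 0.568 and 0.119 in Hmgn2-/- mESCs and 0.513, 0.271 and 0.610 in DKO mESCs. The groups did not overlap, although WT library 1 came near the highest DKO library, and Hmgn2-/- library 3 had 2 counts. Kdr stood at 28.8%, 21.5% and 30.1% of its WT mean. The log2 FC was −1.74 in Hmgn1-/- mESCs (SE 0.41, adjusted p = 0.00398) and −1.66 in DKO mESCs (SE 0.41, adjusted p = 0.00670), both past the limits, and −2.07 in Hmgn2-/- mESCs (SE 0.50, adjusted p = 0.0145), not past. The smallest mean was thus in the line whose test did not pass, and Kdr had too few counts for a test of Hmgn2-/- against Hmgn1-/- mESCs.

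The calls of Kdr in Hmgn1-/- and DKO mESCs were also lost when any of several libraries was left out, not 1 in particular. Against WT, Kdr in Hmgn1-/- mESCs passed without WT library 1 and not without WT library 2, WT library 3 or Hmgn1-/- library 1, 2 or 3, with log2 FC of −2.11 to −1.47 and adjusted p of 2.65e-05 to 0.0244. In DKO mESCs it passed without WT library 1 and not without WT library 2, WT library 3 or any 1 DKO library, with log2 FC of −2.03 to −1.40 and adjusted p of 7.37e-05 to 0.0416. In Hmgn2-/- mESCs it passed when WT library 1 was left out (log2 FC −2.43, adjusted p = 0.00392). Over libraries left out, the log2 FC of Kdr in that line was −2.68 to −1.77 and the adjusted p 0.00392 to 0.0722. It also passed there by DESeq2 (adjusted p = 0.00204), with no filter (adjusted p = 0.00558) and in the fit of all 12 libraries (adjusted p = 0.00334), in a range over alternatives of 0.00204 to 0.0146. Kdr was lower than in WT mESCs in every one of these fits.

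**Figure D2:**
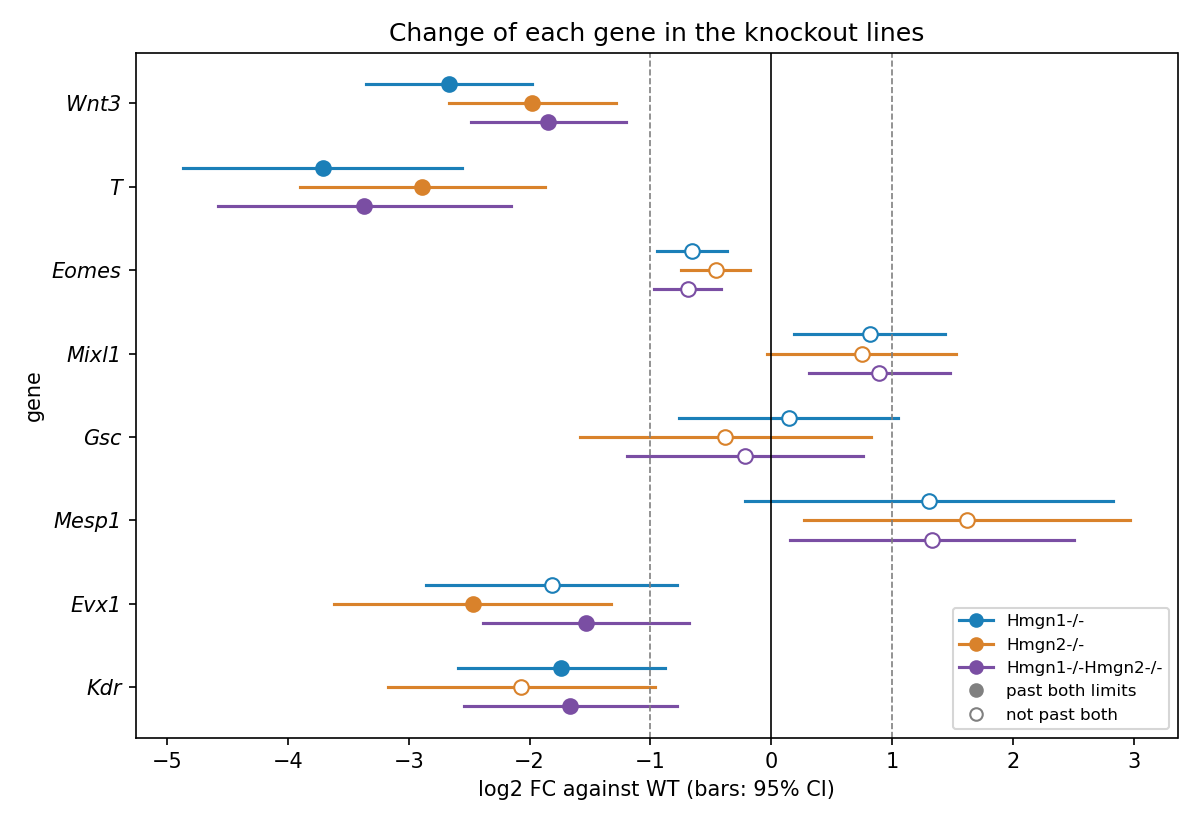
Fitted log2 FC against WT mESCs (x axis) of each gene (y axis) in the 3 knockout lines, with 95% confidence intervals as bars, filled points for genes past both limits and dashed lines at the fold limit. Wnt3 and T are filled in all 3 lines, Kdr and Evx1 in 2 each, and the intervals of Eomes stay short of −1 on the log2 scale.

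Direct tests between knockout lines asked whether the streak genes differ with the protein that is lost. None of the 8 passed the limits by edgeR in Hmgn2-/- against Hmgn1-/- mESCs (0 of 6 tested, where 0.176% of all genes tested passed), DKO against Hmgn1-/- mESCs (0 of 7, 0.525%) or DKO against Hmgn2-/- mESCs (0 of 7, 0.0434%). The last share rests on 6 genes, a number that was 32 with the replicate block, 29 by DESeq2 and 1 without Hmgn2-/- library 2, DKO library 2 or DKO library 3. For the 8 streak genes DESeq2 also gave 0 in each comparison, and at an unadjusted p under 0.05 there were 0, 1 and 0, where 3.22%, 9.52% and 4.43% of all genes tested were at that level. The 1 was Wnt3, with a log2 FC of 0.82 in DKO against Hmgn1-/- mESCs (95% confidence interval 0.0093 to 1.64, adjusted p = 0.515). T and Kdr were not tested in Hmgn2-/- against Hmgn1-/- mESCs, nor T in DKO against Hmgn1-/- mESCs, nor Gsc in DKO against Hmgn2-/- mESCs, as too few counts passed the filter. The intervals were wide, so missing the limits does not show that the lines have like levels. For Kdr, DKO against Hmgn2-/- mESCs gave −0.73 to 1.55, and for T it gave −1.47 to 0.53. The libraries of Evx1 in DKO mESCs lay above those in Hmgn2-/- mESCs without overlap, which held for 10.1% of all genes tested in either direction (log2 FC of Evx1 0.94, 95% confidence interval −0.042 to 1.92, adjusted p = 1.00), a gene singled out after its values were seen.

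If losing each protein changed a gene by its own fold whether or not the other was present, the log2 FC in DKO mESCs would be the sum of those in the single knockouts. The departure from that sum was tested in all 12 libraries. Of the 8 genes only Wnt3 passed, where 3.55% of all genes tested passed in either direction. Wnt3 departed by 2.81 on the log2 scale (95% confidence interval 1.71 to 3.90, SE 0.52, adjusted p = 0.00177), which means that its level in DKO mESCs was higher than the sum predicts. Additive falls would have left 0.123 TMM CPM, and 0.914 was measured. T, Evx1 and Kdr had departures of 3.24, 2.76 and 2.15 with adjusted p of 0.0120, 0.0183 and 0.0543, and Eomes had 0.43 with adjusted p of 0.166. At an unadjusted p under 0.05 there were 5 genes, Wnt3 and these 4 that did not pass, all with a departure upwards, and 25.8% of all genes tested were at that level. The additive levels of T, Kdr and Evx1 correspond to 0.950, 2.51 and 2.45 counts in a DKO library of median depth, below the 3 counts that a count of 0 allows, and that of Wnt3 to 3.23 counts. In DKO library 2 the additive level of Wnt3, 0.123 TMM CPM, was below the limit of 0.135 TMM CPM as well. By DESeq2, T, Evx1 and Wnt3 passed (3 genes), where 588 of 15826 genes tested passed. With the replicate block Evx1 passed beside Wnt3 (departure 2.69, adjusted p = 0.00803 by edgeR), where 589 of 14323 genes tested passed. With no filter T passed beside Wnt3 (adjusted p = 0.00878 by edgeR), where 541 of 19124 genes tested passed. Without WT library 1 the count was 3 (592 of 14482 genes tested) and without DKO library 3 it was 2 (413 of 14521). Wnt3 passed whichever of the 12 libraries was left out.

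Levels can be compared between genes only per length of exon sequence. Per kb, WT mESCs had 2.34 ± 0.0353 TMM CPM of Eomes, 1.60 ± 0.842 of T, 1.10 ± 0.320 of Wnt3 and 0.696 ± 0.345 of Evx1. Below these came Mixl1 at 0.348, Gsc at 0.331, Mesp1 at 0.234 and Kdr at 0.171 TMM CPM per kb, and every neighbouring pair in this order overlapped between libraries. The order was another one in the knockout lines. In Hmgn1-/- mESCs it ran from Eomes at 1.49 through Mixl1 at 0.611, Mesp1 at 0.538, Gsc at 0.393, Evx1 at 0.188 and Wnt3 at 0.165 to T at 0.118 and Kdr at 0.0492. Eomes stayed first in all 4 groups and was clear of the next gene in each knockout line. Mixl1 and Mesp1 took the next places there, at 0.585 and 0.697 TMM CPM per kb in Hmgn2-/- mESCs and 0.647 and 0.552 in DKO mESCs. T, the second gene in WT mESCs, stood at 0.212 in Hmgn2-/- mESCs and 0.153 in DKO mESCs, and Kdr was last in every group.

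Eomes was the only one of the 8 genes averaging 50 counts or more. Across libraries, the genes whose log2 level followed it most closely were Fgd4 (Pearson r 0.96), Xkr8 (0.95) and Ccdc73 (0.94), out of 11554 genes. For T and Wnt3, both added after their values were seen, they were Slc4a11, Igfbp3 and Col7a1 (0.98 each) for T and, for Wnt3, Asb1 (0.97), Btbd10 (0.97) and Il13ra1 (0.96). The points come from 4 lines, and whether the genes also follow each other within a line was not tested.

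Of 22 genes for signals that induce or limit the streak, 21 were tested against WT mESCs. The numbers that fell were 3 (Hmgn1-/-), 2 (Hmgn2-/-) and 3 (DKO), and 1 gene rose in each line, where 5.03%, 4.37% and 4.97% of all genes tested fell and 0.891%, 0.769% and 1.31% rose. The median log2 FC of the list was 0.0073, −0.092 and −0.14. Fgf5, an FGF ligand of the primed epiblast, went from 4.68 ± 0.891 TMM CPM to 0.212 ± 0.0855 (Hmgn1-/-), 0.332 ± 0.186 (Hmgn2-/-) and 0.258 ± 0.0538 (DKO), with log2 FC of −4.40, −3.69 and −4.13. Wnt8a, a Wnt ligand of the posterior embryo, went from 3.40 ± 0.324 TMM CPM to 0.527 ± 0.143, 0.486 ± 0.226 and 0.938 ± 0.181, with log2 FC of −2.66, −2.71 and −1.87. Both ligand genes thus fell in the same lines as Wnt3. Fgf8, an FGF ligand of the streak itself, fell in Hmgn1-/- mESCs (log2 FC −2.67, adjusted p = 2.15e-04) and DKO mESCs (−2.33, adjusted p = 2.36e-04), and had −1.72 in Hmgn2-/- mESCs (adjusted p = 0.0134, not past). Unlike T and Wnt3, it was highest in WT library 1, at 3.28 TMM CPM against 1.29 and 1.73.

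The gene of this list that rose was Dkk1, which encodes a secreted Wnt inhibitor and is itself a target of Wnt signals. It rose from 0.244 ± 0.0918 TMM CPM to 2.20 ± 0.132 (Hmgn1-/-), 2.45 ± 0.205 (Hmgn2-/-) and 5.71 ± 0.808 (DKO), with log2 FC of 3.10, 3.26 and 4.46. Tdgf1, the Nodal co-receptor gene and the gene of the list with the highest TMM CPM, had log2 FC of 0.11, 0.19 and 0.16. Nodal, named after its values were seen, had 62.8, 80.1 and 78.2 TMM CPM in WT mESCs and 31.7 to 45.6 in the knockout libraries. Nodal stayed short of the fold limit, with log2 FC of −0.94, −0.97 and −0.87, but without WT library 1 it passed in Hmgn1-/- and Hmgn2-/- mESCs, where the counts of genes that fell became 4 and 3. The Nodal inhibitor gene Cer1 was at 0 in all 12 libraries.

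Among 20 further transcription factor genes of the streak and nascent mesoderm, 12 were tested in Hmgn1-/- mESCs and 13 in each other line. By edgeR 0 passed in Hmgn1-/- mESCs, by DESeq2 0, and at an unadjusted p under 0.05 there were 8, where 38.7% of all genes tested were at that level. In Hmgn2-/- mESCs 1 fell (4.37% of all genes tested), and in DKO mESCs 2 fell and 1 rose (4.97% and 1.31% of all). Nkx1-2, a homeobox gene of the caudal epiblast, went from 0.887 ± 0.312 TMM CPM in WT mESCs to 0.162 ± 0.0790 in Hmgn2-/- mESCs (log2 FC −2.46) and 0.207 ± 0.0634 in DKO mESCs (−2.06), and had −1.83 in Hmgn1-/- mESCs (adjusted p = 0.0102, not past). Zic2, a zinc finger gene of the epiblast and neural plate, fell in DKO mESCs (log2 FC −1.14). It had −0.83 in Hmgn1-/- mESCs (adjusted p = 0.0402 by edgeR), which missed both limits. In Hmgn2-/- mESCs it had −0.98 (adjusted p = 5.97e-04), which missed only the fold limit. Foxa2, a factor of the anterior streak and endoderm, rose in DKO mESCs from 0.521 ± 0.136 to 2.08 ± 0.313 TMM CPM (log2 FC 2.03), and had 1.12 in Hmgn1-/- mESCs (adjusted p = 0.0343) and 0.98 in Hmgn2-/- mESCs (adjusted p = 0.0670), neither past. Msgn1, a factor of presomitic mesoderm, and Lhx1 had at most 2 and 4 counts in any library, and Evx2 had 0 in all. The median log2 FC of the list was −0.40, 0.0013 and 0.0062. Without WT library 1, Nkx1-2 fell and Tbx6 rose in Hmgn1-/- mESCs (counts 1 and 1), and in DKO mESCs 1 fell (Nkx1-2) and 2 rose (Foxa2 and Tbx6), with Tbx6 named after its values were seen.

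**Figure D3:**
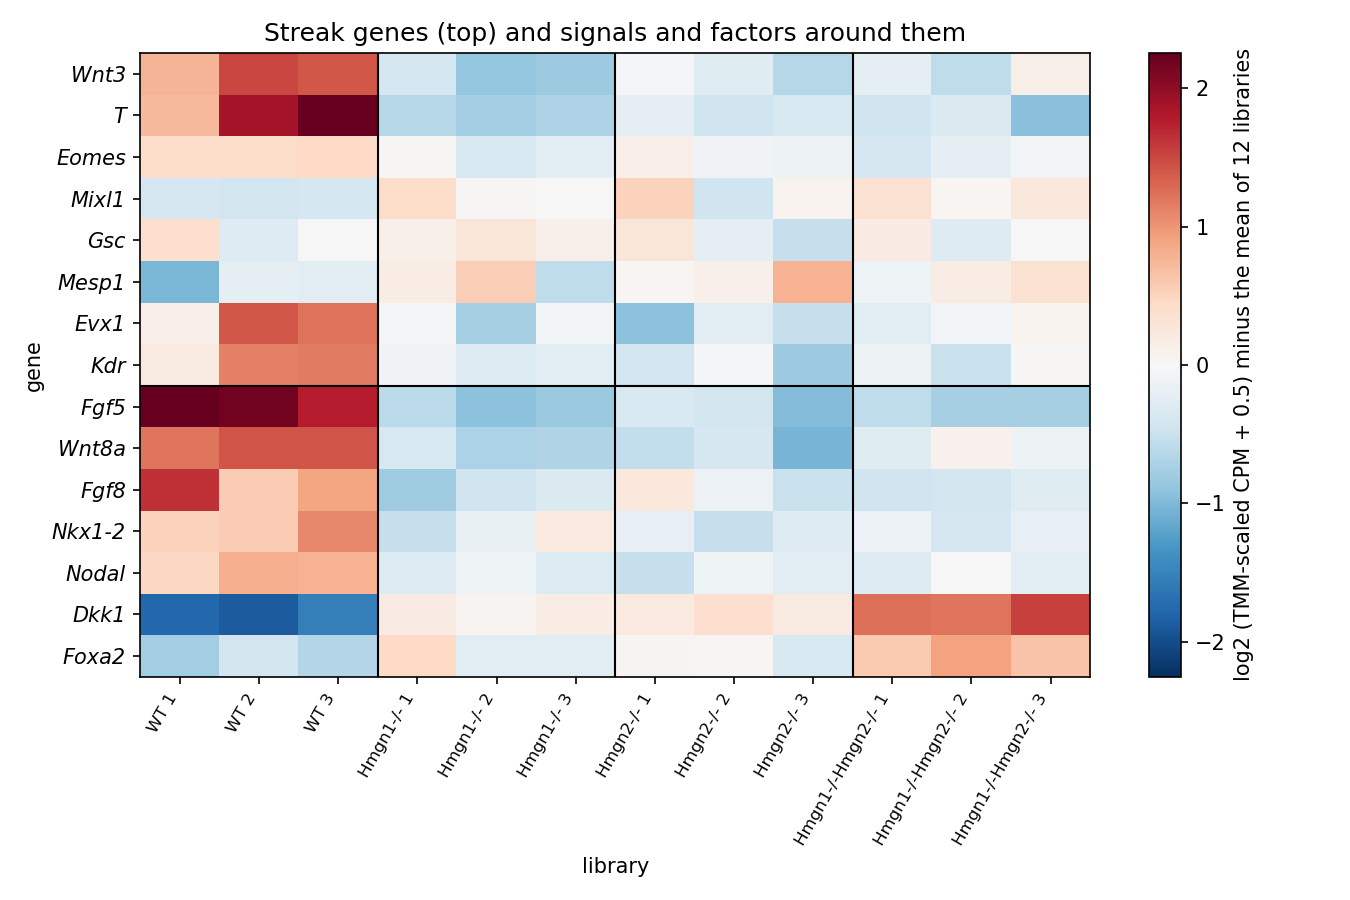
Log2 (TMM CPM + 0.5) of each gene (y axis) minus its mean over the 12 libraries (x axis), with the 8 streak genes above the line and signal and factor genes below it. Wnt3, T, Evx1, Kdr, Fgf5, Wnt8a, Fgf8, Nkx1-2 and Nodal are highest in WT libraries, and Dkk1 is lowest there and highest in DKO libraries.

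Genes of mesoderm derivatives did not move one way. Of 29 listed, 21, 21 and 23 were tested in Hmgn1-/-, Hmgn2-/- and DKO mESCs. In each line 4 fell (5.03%, 4.37% and 4.97% of all genes tested), and 3, 4 and 6 rose (0.891%, 0.769% and 1.31% of all), with a median log2 FC of 0.13, −0.048 and 0.061. The 4 that fell were Acta2, a smooth muscle actin gene, Flt1 and Tek, receptor genes of endothelium, and Hand1, a factor of extraembryonic mesoderm and trophoblast. Acta2 went from 10.3 ± 1.88 TMM CPM to 1.18 ± 0.462, 1.42 ± 0.430 and 0.357 ± 0.268, and Flt1, the second VEGF receptor gene beside Kdr, from 2.80 ± 0.334 to 0.609 ± 0.0902, 0.708 ± 0.128 and 0.776 ± 0.401. Tek had log2 FC of −1.54, −1.44 and −1.62, and Hand1 −2.51, −1.93 and −2.11. The 3 that rose in every line were Pdgfra, Bmper and Nostrin, of which Pdgfra, a receptor gene of paraxial mesoderm, also marks primitive endoderm. Pdgfra went from 0.791 ± 0.0694 TMM CPM to 9.30 ± 0.728, 10.8 ± 2.64 and 23.9 ± 3.35. Bmper had log2 FC of 3.24, 3.30 and 4.97, and Nostrin 4.18, 4.22 and 5.54. Tcf15, the most abundant of the list, a factor of somites and of mESCs, rose in Hmgn2-/- mESCs (log2 FC 1.10) and DKO mESCs (1.17), and in Hmgn1-/- mESCs it missed only the fold limit (0.98, adjusted p = 2.67e-09). Cdh5, a cadherin gene of endothelium, rose in DKO mESCs (log2 FC 2.97), as did Runx1 (1.31), a blood factor gene named after its values were seen.

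Markers of some other cell types differed in the same comparisons, and their part in the result was not tested. Of 9 primitive endoderm markers, 7, 8 and 9 rose in Hmgn1-/-, Hmgn2-/- and DKO mESCs, where 0.891%, 0.769% and 1.31% of all genes tested rose, with a median log2 FC of 2.55, 2.83 and 3.95. Their summed level in libraries 1, 2 and 3 was 144, 183 and 188 TMM CPM in WT mESCs, 479, 393 and 402 in Hmgn1-/- mESCs, 556, 499 and 357 in Hmgn2-/- mESCs and 1049, 1029 and 958 in DKO mESCs. Lama1, a laminin gene with the highest TMM CPM of them as a mean of 12 libraries, had log2 FC of 1.21, 1.20 and 2.06. None of the 9 was at 0 in any library. Gata6 and Sox17, factors of primitive endoderm, had log2 FC of 2.44 and 3.37 (Hmgn1-/-), 2.81 and 3.66 (Hmgn2-/-) and 3.95 and 4.75 (DKO). Gata4, Dab2 and Cubn rose in each line as well, with Gata4 at 36.4 ± 2.59 TMM CPM in DKO mESCs against 2.68 ± 0.428 in WT mESCs. Col4a1, a collagen gene, had a higher TMM CPM than Lama1 in WT library 3 and the DKO libraries, with no division by exon length. Col4a1 rose in Hmgn2-/- mESCs (log2 FC 1.12) and DKO mESCs (2.32), and had 0.83 in Hmgn1-/- mESCs, short of the fold limit. Without WT library 1, Col4a1 did not pass in Hmgn2-/- mESCs, where 7 of the markers then rose. WT library 1, the lowest of its group in Wnt3 and T, also had the lowest sum of primitive endoderm markers of the 12 libraries.

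Some trophoblast markers fell and others did not. Of 8 listed, among them Eomes itself, 7 were tested, and 3, 4 and 4 fell in Hmgn1-/-, Hmgn2-/- and DKO mESCs (5.03%, 4.37% and 4.97% of all genes tested), with a median log2 FC of −2.51, −1.93 and −2.11. Summed levels were 325, 372 and 507 TMM CPM in WT mESCs, 82.9, 80.5 and 110 in Hmgn1-/- mESCs, 113, 115 and 152 in Hmgn2-/- mESCs and 94.0, 107 and 121 in DKO mESCs. The most abundant as a mean of 12 libraries, the keratin gene Krt8, went from 213 ± 53.3 TMM CPM to 30.7 ± 10.8, 52.1 ± 14.1 and 48.6 ± 6.55. Its partner Krt18 fell too (log2 FC −2.80, −2.19 and −2.60), as did Hand1, which stands on the list of mesoderm derivatives as well. Gata3, a trophoblast factor gene, fell in Hmgn2-/- mESCs (log2 FC −3.44) and DKO mESCs (−3.03) and had −3.19 in Hmgn1-/- mESCs (adjusted p = 0.0155, not past). Without WT library 1, Gata3 passed in Hmgn1-/- mESCs and Krt8 did not. Tfap2c and Cdx2, trophoblast factor genes named after their values were seen, did not pass, with log2 FC of 0.021, 0.12 and −0.23 for Tfap2c and −0.52, 0.028 and 0.0062 for Cdx2. In Hmgn1-/- libraries 1 and 2, Tfap2c at 29.6 and 34.3 TMM CPM was above Krt8 at 26.4 and 22.7. Elf5, a defining factor of trophoblast stem cells, had at most 8 counts in any library. The part of these genes in the result was not tested.

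Of 8 fibroblast markers 4 were tested, and Col1a1, Col1a2 and Thy1 fell in each line (5.03%, 4.37% and 4.97% of all genes tested), with a median log2 FC of −1.71, −1.56 and −1.57. Their summed level was 24.95, 20.04 and 23.99 TMM CPM in WT mESCs, 10.4, 10.3 and 9.28 in Hmgn1-/- mESCs, 12.2, 11.1 and 9.22 in Hmgn2-/- mESCs and 11.8, 12.8 and 11.2 in DKO mESCs. Thy1, the most abundant as a mean of 12 libraries and a gene that other cell types express too, had log2 FC of −1.63, −1.62 and −1.32. Fbn1, a fibrillin gene named after its values were seen, had the higher mean of the pair in each knockout line and did not pass, with log2 FC of 0.13, 0.32 and 0.37. The fibroblast matrix gene Lum was at 0 in all 12 libraries, and Dcn and Postn had at most 3 and 4 counts. Of 6 neural markers 5 were tested, and 0 passed in any line by edgeR or by DESeq2, with 4, 3 and 4 at an unadjusted p under 0.05 (38.7%, 31% and 39.0% of all genes tested). Without the fold limit 3, 2 and 2 passed by edgeR, where 2466 of 13917, 1399 of 14047 and 2590 of 14128 genes tested passed. Sox1 was higher (log2 FC 0.58, 0.69 and 0.81) and Nes lower (−0.70, −0.79 and −0.78) in each line, and Pax6 was higher in Hmgn1-/- mESCs (0.75). These genes were named after their values were seen. The neural markers summed to 180 to 210 TMM CPM over the 12 libraries, with Tubb3, a tubulin gene of neurons, as the most abundant. The median log2 FC of the list was 0.19, 0.11 and 0.061. The part of either list in the result was not tested.

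**Figure D4:**
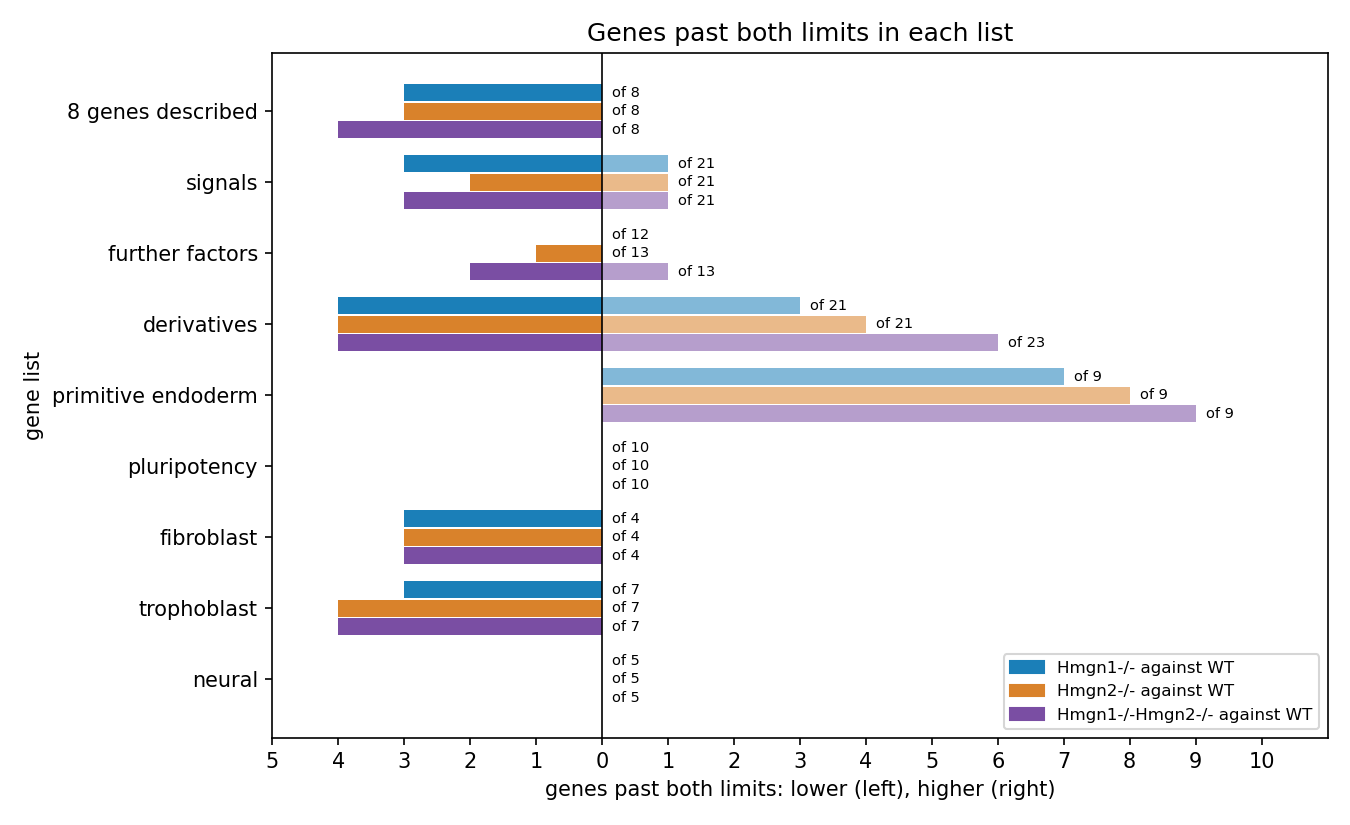
Number of genes past both limits (x axis, lower to the left and higher to the right of 0) in each gene list (y axis) in the 3 knockout lines against WT mESCs, with the number tested beside each bar. The streak genes, fibroblast markers and trophoblast markers have bars to the left alone, and primitive endoderm markers to the right alone.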

How the data were processed

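Gene counts of 12 poly-A RNA-Seq libraries were used as deposited by the authors, who aligned reads to mm10 with STAR and tested with DESeq2 according to the submitters' notes. The counting program, annotation and strand setting are not given in the sources used here. Each of the 6 pairs of groups was fitted on its own 6 libraries with edgeR 4.0.16 (limma 3.58.1, R 4.3.3): filterByExpr, TMM scaling and a robust quasi-likelihood test, with Benjamini-Hochberg adjustment over all genes tested. The contrast for additivity was fitted on all 12 libraries. DEGs had an adjusted p under 0.01 and a log2 FC of at least 1 in size. DESeq2 1.42.0, RLE scaling, other filters and limits, a fit of all libraries, thinned counts, a replicate block and leaving out each library were the alternatives. Gene coordinates and exon lengths came from GENCODE (GRCm38). The steps were tested on simulated data.

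Libraries were checked for pairing by their number, as the correlation over genes of the deviations from their group mean. It was over 0.1 in 16 of 18 pairs with the same number and in 0 of 36 other pairs. It was over 0.1 for each number in Hmgn1-/- against WT, DKO against WT, Hmgn2-/- against Hmgn1-/- and DKO against Hmgn2-/- mESCs, but not in the other 2 comparisons, so a block is an alternative.

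The 8 genes and the gene lists were chosen with earlier results of these data known. Named from the lists were genes past the limits in a knockout against WT, at most the 8 with the largest mean log2 FC in size. The most abundant gene of every list but that of further transcription factors was named too. Outside this rule, Cer1, Lhx1, Msgn1, Evx2, Elf5, Lum, Dcn and Postn were named for few or no counts, after their counts were seen. The genes most like a streak gene were named for streak genes averaging 50 counts or more, and for T and Wnt3 after their values were seen.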

Additional observations from a re-analysis of the deposited data

Results flagged for a closer look

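Wnt3 departed from additivity by 2.81 on the log2 scale (adjusted p = 0.00177 by edgeR), a test of the difference between DKO and Hmgn2-/- mESCs against that between Hmgn1-/- and WT mESCs. Line and genotype cannot be told apart in it, and the additive level of Wnt3 was 3.23 counts in a DKO library of median depth, close to the 3 counts that a count of 0 allows. In DKO library 2 that level, 0.123 TMM CPM, was below the limit of 0.135 TMM CPM. The log2 FC of Wnt3 against WT mESCs was −2.67 (Hmgn1-/-), −1.98 (Hmgn2-/-) and −1.85 (DKO).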

How the results depend on the processing

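The number of the 8 genes past the limits against WT mESCs stayed within 1.5 times its value except as follows. With at least 10 counts in every library it was 0 in Hmgn1-/-, 0 in Hmgn2-/- and 1 in DKO mESCs. The genes that passed in the single knockouts were then not tested, nor were T and Kdr in DKO mESCs, while Evx1 was tested there and did not pass (adjusted p = 0.0115, in a range over alternatives of 0.00184 to 0.0152). With libraries left out in turn it ranged from 2 to 4 in Hmgn1-/-, 1 to 4 in Hmgn2-/- and 1 to 4 in DKO mESCs. Over all genes tested, 563 to 822, 428 to 641 and 548 to 835 fell in these fits. Between knockout lines the count was 0 in all alternatives run. For additivity, where the alternative of a fit of all 12 libraries does not apply, the count was 3 by DESeq2, 2 with no filter, 0 with at least 10 counts in every library, 3 at an adjusted p under 0.05, 2 with the replicate block (Evx1 and Wnt3) and 1 to 3 with libraries left out. Over all genes tested, the additivity counts in that order were 588, 541, 391, 797, 589 and 376 to 592. The cause of the other differences was not tested. Under the replicate block no call changed other than Evx1 in Hmgn1-/- against WT mESCs among comparisons whose libraries pair by number.

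Of 769 log2 FC values of single genes under alternatives, 690 kept their direction and their side of the limits, 25 no longer passed, 22 newly passed and 32 changed sign, none of the latter in a comparison in which that gene passed. With thinned counts, DKO against Hmgn1-/- mESCs gave −0.20 for Mixl1 and 0.025 for Eomes, and DKO against Hmgn2-/- mESCs gave −0.097 for Mixl1. The additivity value of Gsc was −0.0069 by DESeq2 and −0.025 with the replicate block. With libraries left out in turn, Gsc ranged from −0.077 to 0.62 in Hmgn1-/- and −0.53 to 0.27 in DKO against WT mESCs and −0.46 to 0.74 for additivity. In Hmgn2-/- against Hmgn1-/- mESCs Mixl1 ranged from −0.50 to 0.24 and Mesp1 from −0.091 to 0.77. In DKO against Hmgn1-/- mESCs the ranges were −0.023 to 0.29 for Mixl1, −0.13 to 0.090 for Eomes, −0.14 to 0.31 for Kdr, −0.37 to 0.48 for Mesp1 and −0.047 to 0.51 for Evx1. In DKO against Hmgn2-/- mESCs they were −0.16 to 0.59 for Mixl1, −0.49 to 0.099 for Mesp1 and −0.15 to 0.38 for Wnt3. The cause of these changes was not tested. The list counts without WT library 1 or Hmgn2-/- library 3 were chosen after seeing the data. Low counts limit the precision of Gsc and Kdr, with 2 counts each in Hmgn2-/- library 3, and of Mesp1, with 1 count in WT library 1, the deepest library.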

Other observations

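Genes of Nodal signalling did not vary 1 way within WT mESCs. Lefty1, which encodes a Nodal inhibitor, had 118, 60.6 and 43.8 TMM CPM in WT libraries 1, 2 and 3, and Lefty2 had 61.2, 25.0 and 21.3. The streak gene T was lowest in WT library 1, in which both Lefty genes were highest, while Nodal, Gdf3, Foxh1, Acvr2b and Smad2 were lowest there like T, at 0.793, 0.805, 0.895, 0.907 and 0.935 times the mean of the other WT libraries. Against WT mESCs, Lefty1 did not pass in Hmgn1-/- (log2 FC −1.22, adjusted p = 0.211), Hmgn2-/- (adjusted p = 0.0616) or DKO mESCs (log2 FC −1.42, adjusted p = 0.0992). Bmp4, a BMP ligand gene needed for mesoderm, had log2 FC of 0.83, 0.64 and 0.77 in Hmgn1-/-, Hmgn2-/- and DKO mESCs. The adjusted p by edgeR was 0.0109, 0.0130 and 0.00381, so the single knockouts missed both limits and DKO mESCs only the fold limit. The Wnt target genes Axin2 and Sp5 had log2 FC of 0.24 and 0.26 in Hmgn1-/- mESCs, 0.14 and −0.031 in Hmgn2-/- mESCs and 0.43 and −0.19 in DKO mESCs, none past the limits. These genes were named after their values were seen.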
